A study of Mus musculus with 8 samples.

Results

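The 34 genes described here encode factors of ribosome biogenesis, the transcription factor Myc and a pair of enzymes of polyamine synthesis that are classical Myc targets. They were chosen as a list of gene symbols with earlier results of these data known, and all 34 were found among the 24421 genes of the count table. All 34 passed the filter of at least 1 count in at least 2 libraries, as did 12254 genes in all, and 21 of the 34 had a mean of at least 10 counts per library. The libraries hold RNA of neutrophils taken from the bone marrow of 8-week-old female C57BL/6 mice, either wild type (WT) or lacking exon 1 of Padi4 (Padi4 KO), the gene of peptidylarginine deiminase 4, an enzyme that converts arginine to citrulline in histones and other proteins. The cells were isolated magnetically as CD11b+ Ly6G+ neutrophils and were either left unstimulated (Nostim) or stimulated with R848, an agonist of TLR7, at 1 µg/ml for 6 h. The 4 groups were represented by 2 libraries each. The labels give 0 h for the unstimulated libraries and the protocol gives 6 h, so an R848 response may also hold the effect of 6 h in culture. Neither source says whether the duplicates came from separate mice, so the p-values measure the spread between these libraries, which may be technical.

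Ribosomes are assembled in the nucleolus. RNA polymerase I transcribes the ribosomal DNA into a long precursor, small nucleolar RNPs (snoRNPs) of the box C/D and box H/ACA classes guide its methylation and pseudouridylation, and assembly factors fold and cleave it into the small and the large subunit. Myc raises the transcription of many of these genes in growing cells by binding with its partner Max to the E-box CACGTG. Ribosome biogenesis is known to be high in dividing myeloid and erythroid precursors and low in mature neutrophils.

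Since the E-box is the known contact of Myc, the promoters of the members were searched for the letters CACGTG, which read the same on both strands. RefSeq windows on GRCm38.p6, from 250 bases before to 50 bases after a gene's start, were found for 27 of the 34 members (not for Myc, Npm1, Fbl, Srm, Rrp12, Bop1 and Rrs1). The motif was in the window of 7 of these 27 members (25.9%), against 8.09% of the 27025 genes with such a window. These 7 were Mybbp1a, Utp20, Wdr43, Tsr1, Nop2, Pes1 and Grwd1. The last 150 bases of the window, 100 before and 50 after the start, are printed for 5 of them, to show where the motif lay in a gene of RNA polymerase I transcription, in 2 of the small subunit and in 2 of the large subunit. The capitals mark the motif, each sequence runs 5′ to 3′ on the gene's strand, and coordinates are GRCm38.p6.
Mybbp1a, chr11:72441227-72441376, plus strand: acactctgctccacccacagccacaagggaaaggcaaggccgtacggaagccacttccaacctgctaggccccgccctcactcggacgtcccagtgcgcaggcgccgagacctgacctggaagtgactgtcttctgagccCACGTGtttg
Utp20, chr10:88826765-88826914, minus strand: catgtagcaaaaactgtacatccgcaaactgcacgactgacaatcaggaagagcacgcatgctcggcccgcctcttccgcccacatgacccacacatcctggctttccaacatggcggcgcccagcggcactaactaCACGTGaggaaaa
Wdr43, chr17:71616115-71616264, plus strand: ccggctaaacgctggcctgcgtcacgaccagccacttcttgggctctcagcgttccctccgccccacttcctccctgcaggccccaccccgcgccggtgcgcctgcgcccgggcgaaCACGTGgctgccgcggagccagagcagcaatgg
Nop2, chr6:125131783-125131932, plus strand: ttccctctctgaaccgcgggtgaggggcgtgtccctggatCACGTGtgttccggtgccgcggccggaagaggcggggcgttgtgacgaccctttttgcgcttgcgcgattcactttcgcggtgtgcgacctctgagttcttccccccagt
Pes1, chr11:3963875-3964024, plus strand: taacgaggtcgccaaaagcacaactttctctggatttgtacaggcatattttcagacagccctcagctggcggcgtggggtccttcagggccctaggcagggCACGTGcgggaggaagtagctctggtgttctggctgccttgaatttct
The motif began 41 bases after the start in Mybbp1a, 38 in Utp20, 18 in Wdr43 and 3 in Pes1, and 60 bases before the start in Nop2. A match is a description of the letters and does not show that Myc was bound.

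Between 562446 and 1177972 counts per library fell on genes, which puts the floor of 3 counts at 2.55 to 5.33 CPM (counts scaled to a library total of 1e6), and the KO libraries were deeper than the WT libraries (mean 1032735 against 620595 counts). Padi4 itself had 166 to 590 counts in the WT libraries and 21 to 54 in the KO libraries (log2 fold change -4.45, SE 0.13, unstimulated; -3.92, SE 0.17, after R848), where counts outside the deleted exon can remain. Neutrophil marker genes made up 125372 to 168946 CPM of each library. The markers were lists for the cell types a magnetic isolation could leave, and Ly6g was not among the rows of the table. The 13 erythroid markers summed to 85.3 to 85.8 CPM in the unstimulated WT libraries, 15.0 to 18.0 in WT after R848, 823 to 832 in unstimulated Padi4 KO and 1064 to 1100 in Padi4 KO after R848. In bulk RNA, fewer cells of a type and less RNA per cell cannot be told apart. In each group the duplicates differed by more than counting noise alone (chi-square over degrees of freedom 1.05 to 1.67), so all 8 libraries were kept as separate.

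Added over the 34 members, the normalised level was 658 ± 24.8 CPM in unstimulated WT, 1703 ± 13.9 in unstimulated Padi4 KO, 461 ± 39.1 in WT after R848 and 790 ± 11.8 in Padi4 KO after R848 (mean ± SD, n = 2 each). Unstimulated Padi4 KO neutrophils thus had the highest sum of the 4 groups and R848-treated WT neutrophils the lowest. Per kb of exon, Npm1 had the highest level in unstimulated Padi4 KO with 126 CPM per kb, followed by Fbl with 52.8, Odc1 with 50.9 and Nop56 with 42.1. Rrp12 had the lowest with 2.70. In unstimulated WT, Npm1 was again the highest at 27.1 CPM per kb, and Polr1a, at 16.2, and Fbl, at 15.8, came next.

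**Figure D1:**
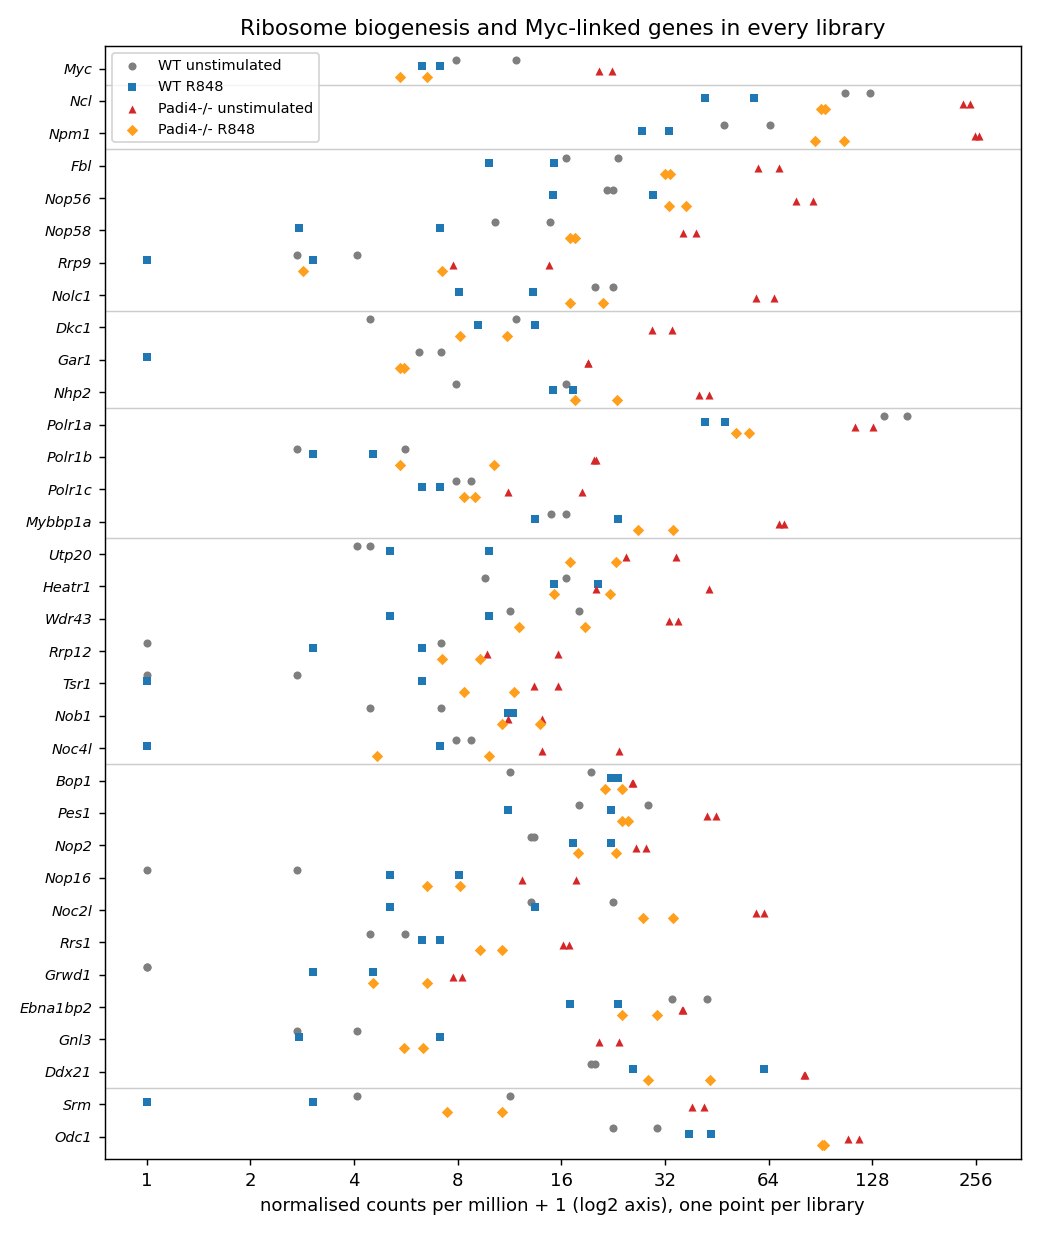
Normalised CPM plus 1 on a log2 axis for each of the 34 members (rows, ordered by role) in each of the 8 libraries, with 1 point per library. For most members the triangles of unstimulated Padi4 KO lie to the right of all other points, as for Npm1, where they stand at 260 and 253 CPM, whereas for Polr1a they lie beside those of unstimulated WT.

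Without stimulation, 29 of the 34 members were higher in Padi4 KO than in WT neutrophils and none was lower. In all genes tested, 9.55% were called higher and 14.4% lower at the same false discovery rate of 0.1 (quasi-likelihood F-test of edgeR, adjusted by Benjamini-Hochberg over the 12254 genes). The median log2 fold change over the 34 members was 1.78 (1.74 with Grwd1, which had no count in unstimulated WT, at its bound), against -0.16 over all genes with a mean of at least 10 counts. Of the 21 members with a mean of at least 10 counts, 18 were called higher and 0 lower, with a median of 1.76. Of all genes with that mean, 12.4% were called higher and 24.2% lower. At an unadjusted p under 0.05, 1 member, Polr1a, was lower by edgeR and 0 by DESeq2. DESeq2 called 17 of the 34 higher, against 475 of all 12254 genes, and gave 2 no adjusted p.

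Myc had 7 and 4 counts in the unstimulated WT libraries and 19 and 27 in the Padi4 KO libraries, or 10.8 and 6.91 against 21.5 and 19.6 CPM. The groups did not overlap, but the counts were few, with a mean under 10 per library, and the difference (2.25-fold, log2 1.17, SE 0.47, adjusted p = 0.0613) was not called by DESeq2 or without any 1 of the 4 unstimulated libraries (adjusted p between 0.124 and 0.356). The nucleolar chaperone nucleophosmin, Npm1, stood at 63.4 and 46.6 CPM in WT and at 260 and 253 CPM in Padi4 KO. It was 4.60-fold higher in Padi4 KO (log2 2.20, SE 0.17, adjusted p = 1.49e-36), the smallest p of the 34 members. Nucleolin, Ncl, an RNA-binding protein of the nucleolus, had 125 and 105 CPM in WT and 244 and 234 CPM in Padi4 KO, a 2.06-fold difference (log2 1.04, SE 0.14, adjusted p = 1.76e-11).

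All 8 snoRNP members were higher in unstimulated Padi4 KO. Fibrillarin, Fbl, the methyltransferase of the box C/D particles, had 15.5 and 22.4 CPM in WT and 58.8 and 67.5 CPM in Padi4 KO (3.39-fold, log2 1.76, SE 0.29, adjusted p = 3.73e-08). The other box C/D members lay between log2 1.60 for Nolc1, a chaperone of snoRNP assembly, and 2.11 for Rrp9, a protein of the U3 particle. Rrp9 had only 3 counts over both unstimulated WT libraries, against 25 in Padi4 KO, a ratio of 4.52 with a counting interval of 1.38 to 23.4 (95%, exact). Dyskerin, Dkc1, the pseudouridine synthase of the box H/ACA particles, had 10.8 and 3.45 CPM in WT and 28.3 and 32.7 CPM in Padi4 KO (4.15-fold, log2 2.05, SE 0.44, adjusted p = 5.82e-05). Its partners Nhp2 and Gar1 had log2 fold changes of 1.80 and 1.64, Gar1 at a mean of under 10 counts and not called by DESeq2 (adjusted p = 0.287) or without either unstimulated WT library (adjusted p = 0.11 and 0.137).

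The members of RNA polymerase I transcription did not move together. Polr1b, the gene of its second largest subunit, had 3 and 1 counts in the WT duplicates against 17 and 26 in those of Padi4 KO (5.62-fold, log2 2.49, SE 0.62, adjusted p = 0.000673), and Mybbp1a, a nucleolar protein found with the polymerase, was 4.63-fold higher (log2 2.21, SE 0.30, adjusted p = 2.2e-11). Polr1a, the gene of the largest subunit, had 138 and 161 CPM in WT and 128 and 113 CPM in Padi4 KO, and its difference did not pass the test (log2 -0.32, SE 0.15, adjusted p = 0.136). Polr1c, a subunit shared with RNA polymerase III, did not pass either (log2 0.97, SE 0.53). In unstimulated WT, Polr1a was the member with the most counts, 89 and 93.

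Among the 7 members of small subunit assembly, 6 were called higher. Utp20, a large scaffold of the small subunit processome, had 2 counts in each unstimulated WT library and 21 and 46 in the Padi4 KO libraries (8.70-fold, log2 3.12, SE 0.54, adjusted p = 2.59e-07). The processome members Heatr1, Wdr43 and Noc4l and the export factor Rrp12 lay between log2 1.18 and 1.72. Tsr1, a factor of late small subunit maturation, had 1 count over both WT libraries and 30 in Padi4 KO, a ratio of 16.3 with a counting interval of 2.70 to 663. Nob1, the endonuclease of the last cleavage of small subunit rRNA, was not called (log2 1.26, SE 0.62, adjusted p = 0.147). By DESeq2, Utp20 alone of the 7 was called.

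Of the 10 members of large subunit assembly, 8 were called higher. The RNA helicase Ddx21 had 18.6 and 19.0 CPM in WT and 80.3 and 80.5 CPM in Padi4 KO, so that the duplicates lay close together and the groups far apart (4.26-fold, log2 2.09, SE 0.27, adjusted p = 1.91e-12). Nop16, with 0 and 1 counts in the WT duplicates, had 10 and 23 in the Padi4 KO duplicates, a ratio of 17.9 with a counting interval of 2.99 to 727. Nucleostemin, Gnl3, a nucleolar GTPase of stem and progenitor cells, had 2 and 1 counts in the WT duplicates against 20 and 27, a ratio of 8.49 with a counting interval of 2.73 to 42.6. Grwd1, a chaperone of a ribosomal protein, had 0 counts in both WT libraries against 6 and 10. It was 2.89-fold higher when the WT group was set at 3 counts (lower limit of the counting interval 2.09). Noc2l, Rrs1, Nop2 and Pes1 lay between log2 0.94 and 1.89, whereas Bop1, which forms a complex with Pes1, and Ebna1bp2 were not called (log2 0.75 and -0.07). DESeq2 did not call Rrs1, Nop2 and Pes1 either and gave Grwd1 no adjusted p.

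Both enzymes of polyamine synthesis were higher in unstimulated Padi4 KO. Ornithine decarboxylase, Odc1, which makes putrescine, had 21.6 and 29.4 CPM in WT and 116 and 108 CPM in Padi4 KO (4.39-fold, log2 2.13, SE 0.24, adjusted p = 4.87e-17). Spermidine synthase, Srm, had 2 and 6 counts in the WT duplicates against 33 and 56 (5.91-fold, log2 2.56, SE 0.43, adjusted p = 9.26e-08).

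**Figure D2:**
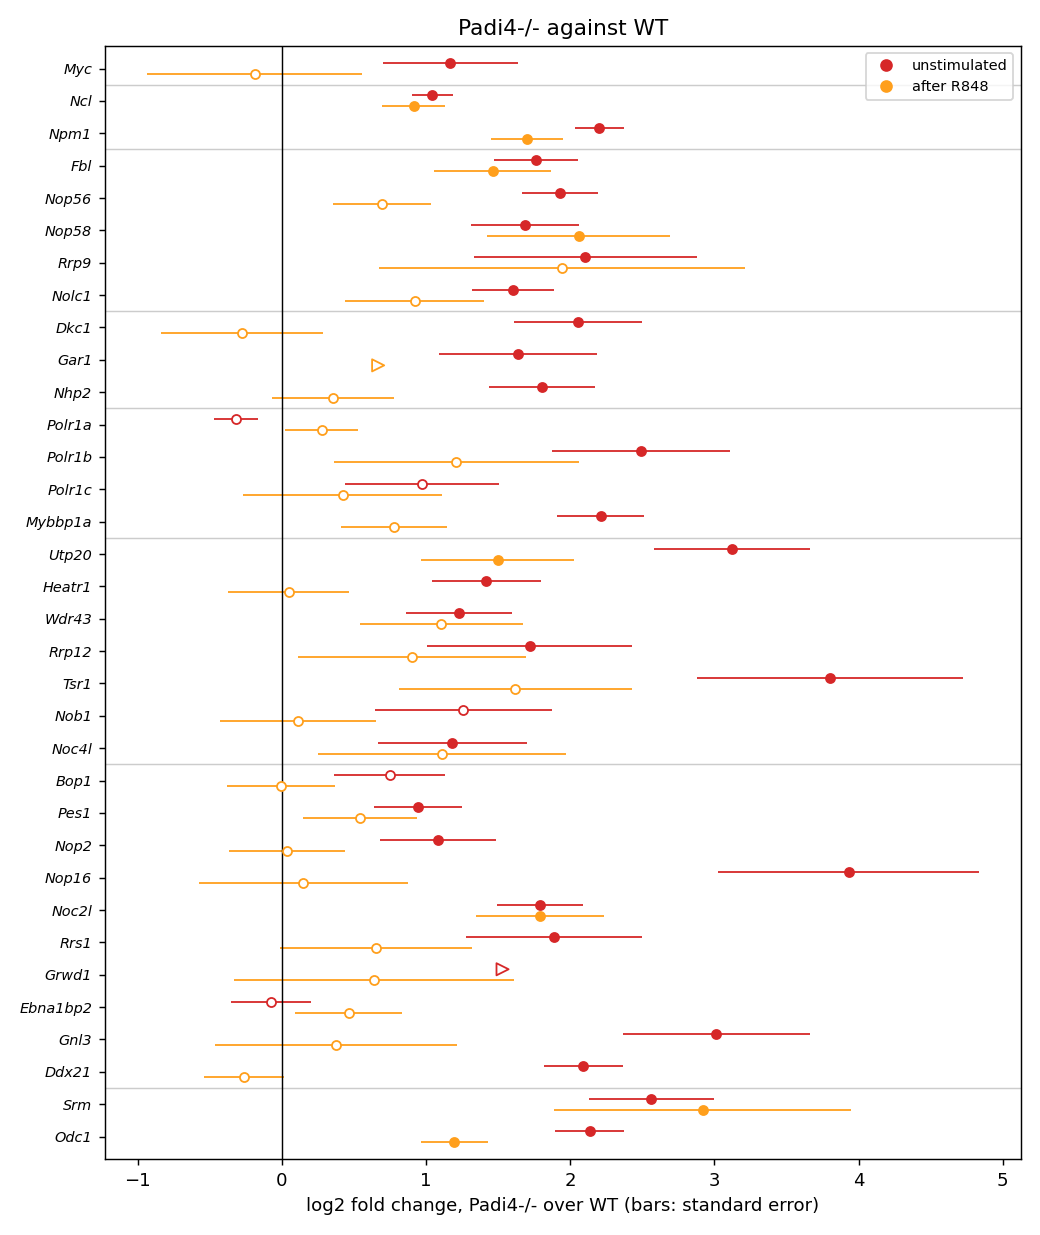
Log2 fold change of Padi4 KO (Padi4-/-) over WT for each member, unstimulated (red) and after R848 (orange), with bars for the standard error, filled points for members past the false discovery rate of 0.1 and open triangles for a bound where WT had no count. Without stimulation 29 members were called and all lie to the right of 0, and after R848 the number is 9.

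The genotypes also differed in marker genes of other cell types. In unstimulated cells 12 of the 13 erythroid markers were higher in Padi4 KO, among them Klf1, the erythroid transcription factor, with 4 counts in each WT library against 56 and 88. The 9 monocyte markers summed to 473 to 533 CPM in WT and 1188 to 1213 in Padi4 KO (7 of 9 called higher), and the 14 proliferation markers to 1077 to 1237 and 1942 to 1976 CPM (7 of 14 called higher, 4 by DESeq2 and 13 with library size alone, with 13 of 14 log2 values positive). The 7 not called by edgeR included Mki67 and Top2a (log2 0.12 and 0.10). Neutrophil markers were lower in Padi4 KO (11 of 12), promyelocyte markers too (5 of 6), and of 5 progenitor markers 1 was lower, Kit, with 27 and 25 counts in WT and 26 and 28 in the deeper Padi4 KO libraries (log2 -0.82, SE 0.29, adjusted p = 0.0294), a call made neither by DESeq2 nor with library size alone. The others, Cd34, Flt3, Gata2 and Meis1, had at most 5 counts in any library. The part of all these cell types in the difference of the 34 members was not tested.

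**Figure D3:**
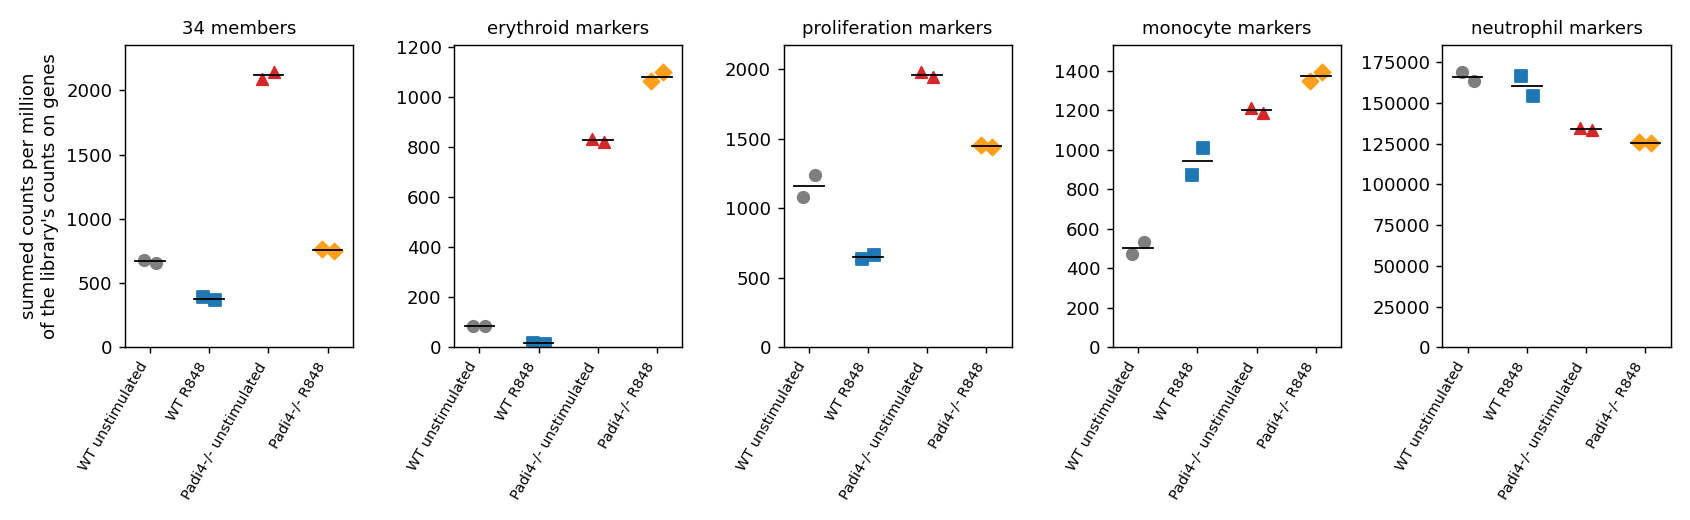
Summed CPM of the library's counts on genes, for the 34 members and for 4 lists of marker genes, with 1 point per library and a line at the mean of each group. In Padi4 KO the members stood at 2091 and 2142 before and at 762 and 749 after R848, and the erythroid markers at 832 and 823 before and at 1064 and 1100 after.

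After R848, 9 members were higher in Padi4 KO than in WT and none was lower, against 9.46% of all genes called higher and 7.81% lower. The median log2 fold change over all 34 members was 0.74 (0.68 with Gar1, which had no count in WT after R848, at its bound). Over the 21 members with a mean of at least 10 counts it was 0.78, against -0.00 for all genes with that mean. The 9 were Npm1, Ncl, Fbl, Nop58, Gar1, Utp20, Noc2l, Srm and Odc1. All were also among the 29 of the unstimulated comparison, an overlap that 29 calls among 34 members make likely. Whether the genotype difference itself was smaller after R848 is the question of the difference of responses, given further on, which passed for 3 members. At an unadjusted p under 0.05, 0 members were lower by edgeR and by DESeq2. DESeq2 called 4 members higher, and without WT R848 replicate 2 edgeR called 5 higher and 1, Ddx21, lower (log2 -0.89, adjusted p = 0.0527).

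Npm1 had 26.5 and 31.9 CPM in WT after R848 and 105 and 86.4 CPM in Padi4 KO (3.25-fold, log2 1.70, SE 0.25, adjusted p = 4.48e-10). Odc1 had 36.7 and 42.5 CPM in WT and 90.6 and 91.9 CPM in Padi4 KO (2.29-fold, log2 1.19, SE 0.23, adjusted p = 8.05e-06). Ncl had 57.1 and 40.7 CPM in WT and 92.4 and 90.1 CPM in Padi4 KO (1.88-fold, log2 0.91, SE 0.22, adjusted p = 0.00058), but its call was lost without WT R848 replicate 2 (adjusted p = 0.183). Npm1, Odc1 and Ncl were the 3 members of smallest p in this contrast. Their libraries did not overlap between the genotypes, which that choice makes likely. Fbl was 2.76-fold higher (log2 1.46, SE 0.41, adjusted p = 0.0041) and lost its call without the same library (adjusted p = 0.203) and by DESeq2 (adjusted p = 0.126). Srm had 1 and 0 counts in the treated WT duplicates against 11 and 7, a ratio of 8.58 with a counting interval of 1.36 to 358. Gar1 had 0 in both WT libraries and 5 in each Padi4 KO library. It was 1.59-fold higher with the WT group set at 3 counts (lower limit of the counting interval 1.07). Both had few counts, and their calls were lost without single libraries and by DESeq2 (adjusted p = 0.278 and 0.199).

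Myc had 3 to 6 counts in all 4 libraries after R848, with 3 counts in each WT library and 5 and 6 in the Padi4 KO libraries (6.11 and 5.31 against 4.44 and 5.51 CPM, log2 -0.19, SE 0.75). Its direction turned when libraries were scaled by their size alone (log2 0.02). Dkc1 had 8.15 and 12.4 CPM in WT against 7.11 and 10.1 CPM in Padi4 KO, and Ddx21 had 61.1 and 24.8 against 27.5 and 42.3, so that in both genes the genotypes overlapped. In the R848-treated cells 13 of 13 erythroid markers and 12 of 14 proliferation markers (7 by DESeq2) were higher in Padi4 KO, as were 4 of 9 monocyte markers, whereas 10 of 12 neutrophil and 5 of 6 promyelocyte markers were lower. The erythroid sum in Padi4 KO was above that of the unstimulated cells. The part of these cell types in the 9 calls was not tested.

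In Padi4 KO neutrophils, 20 of the 34 members were more than 2-fold lower after R848 than unstimulated and none was higher. In all genes tested, 8.84% fell and 8.07% rose by these criteria. With the false discovery rate alone 24 members fell, against 15.9% of all genes lower and 19.2% higher. All 34 log2 fold changes were negative (-2.25 to -0.08), with a median of -1.17. Over the 21 members with a mean of at least 10 counts it was also -1.17, against 0.08 for all genes with that mean. At an unadjusted p under 0.05, 0 members were higher by edgeR and by DESeq2, which called 16 lower. By the same criteria 0 of 13 erythroid markers were called lower and 3 higher, 0 of 14 proliferation markers were called lower (4 with the false discovery rate alone), 4 of 6 promyelocyte markers fell, and of 5 progenitor markers 1, Kit, fell (0 by DESeq2). Of 9 monocyte markers 5 fell and 2 rose, and their sum went from 1188 to 1213 CPM before to 1351 to 1394 after. The part of these cell types in the fall of the members was not tested.

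The 3 largest falls among the called members were those of Srm, Gnl3 and Myc. Srm went from 37.3 and 40.6 CPM to 9.77 and 6.43 CPM, 4.77-fold lower (log2 -2.25, SE 0.34, adjusted p = 2.78e-10). Gnl3 went from 20 and 27 counts to 6 and 5 (log2 -2.03, SE 0.45, adjusted p = 4.56e-05), and Myc from 19 and 27 to 5 and 6 (log2 -2.00, SE 0.45, adjusted p = 5.84e-05), in libraries of similar or greater depth. For each of the 3 genes the R848 libraries lay below the unstimulated ones, which their choice as the largest called falls makes likely. Npm1 fell 2.67-fold (log2 -1.42, SE 0.13, adjusted p = 7.25e-28) and Ncl 2.61-fold (log2 -1.39, SE 0.13, adjusted p = 1.25e-25), the most precise values of the list.

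By role, all 5 box C/D members fell (log2 -1.78 to -1.01), with Fbl just past the 2-fold limit at -1.01, just short of it with the replicate number in the model and at -0.89 without KO Nostim replicate 2. All 3 box H/ACA members fell too, with Dkc1 going from 28.3 and 32.7 to 7.11 and 10.1 CPM (log2 -1.83, SE 0.35, adjusted p = 1.75e-06). Of the members of polymerase transcription, Polr1a, Polr1b and Mybbp1a fell (log2 -1.17, -1.47 and -1.22) and Polr1c did not pass (log2 -0.91, SE 0.44). DESeq2 did not call Polr1b (adjusted p = 0.193), nor was it called with counts thinned to the smallest library (log2 -0.57, adjusted p = 0.504). Of the 7 small subunit factors 2 fell, Wdr43 and Noc4l, and of the 10 large subunit factors 3 fell, Nop16, Gnl3 and Ddx21. DESeq2 did not call Wdr43, Noc4l and Nop16 (adjusted p = 0.11, 0.209 and 0.401), nor Rrp9 of the box C/D members (adjusted p = 0.457). Nop16 was also not called with thinned counts (adjusted p = 0.406) or without KO Nostim replicate 2 (0.435) or KO R848 replicate 2 (0.130). Utp20, Heatr1, Pes1 and Noc2l passed the false discovery rate with a change of at most 2-fold. Odc1 had 90.6 and 91.9 CPM after R848 against 116 and 108 before, and was not called (log2 -0.29, SE 0.15, adjusted p = 0.135).

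In WT neutrophils, 1 member, Ddx21, was higher after R848 and 4 were lower, Ncl, Polr1a, Srm and Gar1. This was 1 of 34 against 7.17% of all genes higher and 4 of 34 against 10.8% lower, so the share of members called was near that of all genes. With the false discovery rate alone 6 were lower and 1 higher, against 16.0% and 13.5% of all genes. The median log2 fold change was -0.11 over the 34 members. Over the 21 members with a mean of at least 10 counts it was -0.45, against -0.07 for all genes with that mean. Scaling by library size alone gave 10 members lower, against 2106 of all 12254 genes. All 4 that fell were also among the 20 of 34 members that fell in Padi4 KO. In the same WT comparison 5 of 13 erythroid, 4 of 14 proliferation and 4 of 6 promyelocyte markers were lower and 0 higher. Of 9 monocyte markers 4 were lower and 2 higher, with a sum of 473 to 533 CPM before and 875 to 1012 after. The part of these cell types was not tested.

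Polr1a went from 138 and 161 CPM to 46.9 and 40.7 CPM in WT (3.40-fold lower, log2 -1.77, SE 0.22, adjusted p = 6.18e-14) and from 128 and 113 to 55.1 and 50.5 CPM in Padi4 KO (2.25-fold lower, log2 -1.17, SE 0.16, adjusted p = 1.89e-11). Its R848 libraries lay far below the unstimulated ones in each genotype. Ncl fell 2.39-fold in WT (log2 -1.26, SE 0.23, adjusted p = 4.73e-07), though by less than 2-fold without WT R848 replicate 2 (log2 -0.92). Gar1 went from 4 and 3 counts to 0 and 0, 2.01-fold lower with the R848 group set at 3 counts (lower limit of the counting interval 1.24). Srm went from 2 and 6 counts to 1 and 0, a ratio of 6.89 (unstimulated over R848) with a counting interval of 0.923 to 306. Neither held without single libraries, and Srm was not called by DESeq2 (adjusted p = 0.258) or with relative log expression factors (adjusted p = 0.105). Npm1 had 63.4 and 46.6 CPM before and 26.5 and 31.9 after (1.88-fold lower, log2 -0.91, SE 0.30, adjusted p = 0.014), past the false discovery rate but not 2-fold.

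Ddx21 went from 18.6 and 19.0 CPM to 61.1 and 24.8 CPM in WT (2.21-fold higher, log2 1.15, SE 0.36, adjusted p = 0.0087). The 2 R848 libraries were far apart, and without replicate 1, which had the higher value, the rise was no longer called (log2 0.54, adjusted p = 0.539), nor was it with library size alone (log2 0.84, under 2-fold). Myc had 7 and 4 counts before and 3 and 3 after (log2 -0.64, SE 0.74), and Odc1 21.6 and 29.4 CPM before and 36.7 and 42.5 CPM after (log2 0.65, SE 0.34, adjusted p = 0.167). Neither passed the test. Dkc1, with 10.8 and 3.45 CPM before and 8.15 and 12.4 after, overlapped between the groups. Fbl, at 15.5 and 22.4 CPM before and 14.3 and 8.85 after, did not overlap but did not pass either (log2 -0.72, SE 0.50).

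The difference of the responses (Padi4 KO minus WT) passed for 3 members, all in the direction of a more negative response in Padi4 KO, and for 0 in the other. In all genes 1.26% were called lower and 3.45% higher in this contrast (154 and 423 genes), a split that turned to 233 lower and 160 higher with relative log expression factors. Ddx21 had a difference of log2 -2.35 (SE 0.41, adjusted p = 3.56e-06), from a rise in WT and a 2.31-fold fall in Padi4 KO (log2 -1.21, SE 0.19, adjusted p = 7.51e-09). It stayed called without any single library (adjusted p at most 0.0437). Dkc1 had a difference of log2 -2.33 (SE 0.76, adjusted p = 0.0637) and Nop16 of -3.78 (SE 1.33, adjusted p = 0.0977), where Nop16 had 1 count over both unstimulated WT libraries. With counts thinned to the smallest library neither was called (adjusted p = 0.383 and 0.442). Without WT Nostim replicate 2 or without KO Nostim replicate 2, 1 member, Ddx21, was called. By edgeR 10 members were lower and 1 higher at an unadjusted p under 0.05, by DESeq2 6 and 0, and DESeq2 called 0 and gave no adjusted p for 30 of the 34.

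For the other 31 members the difference did not pass, which does not show that the responses were alike. The median difference over the 34 members was -0.88, and 29 of the 34 were negative. Over the 21 members with a mean of at least 10 counts it was -0.68, against 0.18 for all genes with that mean. For Npm1 and Ncl, the members with the most counts, the differences were -0.50 (SE 0.35) and -0.13 (SE 0.28), for Odc1 -0.94 (SE 0.37) and for Myc -1.36 (SE 0.93). With counts thinned to the smallest library Odc1 was called (log2 -1.42, adjusted p = 0.0289). Polr1a was among the 5 with a positive value (0.59, SE 0.29).

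Other genes of the pathway, from lists that hold none of the 34 members, were counted in the same fits. In unstimulated Padi4 KO against WT, 18 of 48 tested genes of the small subunit processome and its maturation were higher and 1, Krr1, was lower (28 and 22 counts in the WT duplicates, 16 and 23 in the Padi4 KO ones, log2 -1.23, SE 0.32, adjusted p = 0.00106). Of the genes of large subunit maturation 19 of 47 were higher and 0 lower and of other snoRNP factors 6 of 10 and 0. DESeq2 called 2, 4 and 0 genes of these 3 lists higher and 0 lower, against 475 higher and 586 lower of all 12254 genes. By DESeq2 the share of the small subunit genes was thus near that of all genes. Sdad1, with 3 and 1 counts in the WT duplicates and 16 and 47 in the others (log2 3.03, SE 0.55, adjusted p = 1.18e-06), Ftsj3, an rRNA methyltransferase (log2 2.01, SE 0.37, adjusted p = 1.26e-06), and Nop9 (log2 1.66, SE 0.36, adjusted p = 7.62e-05) are examples. Emg1 of the small subunit (log2 1.34, SE 0.37, adjusted p = 0.00299) and the snoRNP factors Nhp2l1, Tcof1 and Ruvbl2 (log2 0.97, 0.95 and 0.74) were higher by edgeR but not by DESeq2. Over all genes 9.55% were higher by edgeR. Of the factors of pre-rRNA transcription 2 of 12 were higher and 0 lower (0 and 0 by DESeq2), a share near that of all genes, with Rrn3, the initiation factor of RNA polymerase I, higher (log2 1.10, SE 0.39, adjusted p = 0.0264) and Ubtf and Ttf1 not (log2 0.24, SE 0.16, adjusted p = 0.313, and log2 -0.70, SE 0.33, adjusted p = 0.132).

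After R848 in Padi4 KO, 12 of the 47 large subunit genes and 3 of 48 small subunit genes fell by more than 2-fold. So did 3 of 12 genes of pre-rRNA transcription and 1 of 10 other snoRNP factors, and none rose by as much in these 4 lists. With the false discovery rate alone 15, 8, 3 and 3 fell and 3, 2, 1 and 0 rose, against 15.9% and 19.2% of all genes. Against the 8.84% of all genes that fell by more than 2-fold, the shares of the small subunit genes and the other snoRNP factors were near the background. In the same order DESeq2 called 7, 0, 0 and 0 lower, against 599 of all 12254 genes. Library size alone gave 17, 16, 4 and 3, against 2072 of all genes. In WT the same 4 lists had 2, 1, 0 and 1 lower and 2, 2, 0 and 0 higher. Rsl1d1, a nucleolar factor, went from 37 and 60 to 16 and 14 counts in Padi4 KO (log2 -1.65, SE 0.29, adjusted p = 1.18e-07) and from 12 and 6 to 7 and 6 in WT (log2 -0.25, SE 0.53). Sdad1 was 1 of 2 large subunit genes whose responses differed between genotypes (log2 -3.23, SE 0.87, adjusted p = 0.0112), from 3 and 1 counts in unstimulated WT, and DESeq2 called 0 of the list.

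Of the 14 tested genes of the Myc network, the partners and rivals of Myc, 6 were lower in unstimulated Padi4 KO and 0 higher. Over all genes 14.4% were lower and 9.55% higher. With libraries scaled by their size alone 1 was lower and 2 were higher, and all genes split 561 lower and 1901 higher. DESeq2 called 1 lower, against 586 of all genes. Mlxip, a partner of the related Mlx, had 65 and 82 counts in the WT duplicates against 55 and 93 in the deeper Padi4 KO ones (log2 -0.88, SE 0.18, adjusted p = 1.9e-05) and was called lower under all 4 scalings. Max, the obligate partner of Myc, had a log2 fold change of -0.38 (SE 0.11, adjusted p = 0.00276) that was -0.10 with library size alone, and neither that scaling nor DESeq2 called it. After R848, Max passed the false discovery rate in both genotypes with changes under 2-fold (log2 -0.85, SE 0.13, in WT and -0.61, SE 0.11, in the KO). Trrap, a coactivator subunit that binds Myc, went from 125 and 106 to 49 and 50 counts in WT (2.01-fold lower, SE 0.18 on the log2 scale, adjusted p = 1.65e-07), and its value in the KO was log2 -0.35 (SE 0.13, adjusted p = 0.0301). Its difference of responses (log2 0.65, SE 0.22, adjusted p = 0.085), the 1 call of this list in that contrast, was positive, but with relative log expression factors and by DESeq2 the list had 0 genes called higher and 1 lower. That call, and the 2-fold limit in WT, were lost by DESeq2 and with relative log expression factors, and the call also with library size alone.

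The counts were assigned to genes with a strand setting that is not stated. Genes on the opposite strand overlap exons of Nop56, Dkc1, Nhp2, Mybbp1a, Tsr1, Bop1, Noc2l and Gnl3, so that reads of the 2 partners may not be told apart. Dkc1 overlaps Mpp1, and Gnl3 overlaps Pbrm1. For the 7 members whose window held CACGTG, all 7 were called higher in unstimulated Padi4 KO and 2 called lower after R848 in Padi4 KO, and for the 20 members whose window did not hold it 16 and 14 were. The groups of members are small and were compared by these counts only.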

How the data were processed

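RNA-seq of 8 libraries of bone marrow neutrophils was analysed in 4 groups of 2. The authors trimmed reads with cutadapt 1.16, removed those of low quality, aligned them to mm10 with STAR 2.5.3a and counted them with HTSeq 0.6.1p1, and the deposited values are raw counts per gene symbol. Between 87.0% and 89.5% of the table's reads were on genes; HTSeq's summary lines were left out. Annotation and strand setting are not given in the sources used here.

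Genes with at least 1 count in at least 2 libraries were fitted in R 4.3.3 with edgeR 4.0.16 (TMM factors, 1 mean per group, robust quasi-likelihood) and limma 3.58.1. P-values were adjusted by Benjamini-Hochberg over 12254 genes. An R848 response counted as called when its adjusted p was under 0.1 and its change over 2-fold, and the other contrasts on the adjusted p alone. An SE is the log2 fold change over the square root of F. Normalised CPM uses TMM factors; floors (3 counts) and marker sums use library totals. Where a group had no counts, a fold is a bound that sets the group at 3 counts, given with the lower limit of the exact 95% interval. With 1 to 3 counts, ratios carry exact 95% intervals. These intervals cover counting error only. Positions and exon lengths came from GENCODE M21. The fitting steps were tested on simulated data. DESeq2 1.42.0 and other scalings, filters and left-out libraries were alternatives.

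The members and gene lists were chosen with earlier results of these data known. Every member is accounted for by role. Values per library are given for Myc, for a fixed gene of each role, for members called in the difference of responses, and for those of the largest change or smallest p. From each other pathway list up to 3 genes of smallest p and a mean of at least 10 counts are named. One gene that this rule selects is not reported here.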

Additional observations from a re-analysis of the deposited data

Results flagged for a closer look

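For 3 members the R848 response itself differed between the genotypes by the test of the difference. Ddx21 had a difference of log2 -2.35 (SE 0.41, adjusted p = 3.56e-06), Dkc1 of -2.33 (SE 0.76, adjusted p = 0.0637) and Nop16 of -3.78 (SE 1.33, adjusted p = 0.0977), each as the response in Padi4 KO minus that in WT. Ddx21 was called under every alternative that gave an adjusted p and without each library in turn (log2 -3.13 to -1.88). Its value in WT after R848 was 61.1 CPM in replicate 1 and 24.8 in replicate 2. Dkc1 and Nop16 lost their call without 4 and 6 of the 8 libraries taken out in turn and with counts thinned to the smallest library (adjusted p = 0.383 and 0.442), and Nop16 also with library size alone (0.105), no filter beyond 1 count (0.109) and the replicate block (0.116). Dkc1 had 7 and 2 counts in unstimulated WT, and Nop16 0 and 1. In the same contrast all 13 erythroid markers and all 14 proliferation markers had positive values, of which 6 and 4 were called, and 5 and 1 with relative log expression factors, 1 and 0 by DESeq2. Promyelocyte markers were negative in 5 of 6 (2 called, 0 by DESeq2, median log2 -0.47) and monocyte markers in 8 of 9 (0 called, median log2 -0.54). The part of these cell types in the 3 differences was not tested.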

How the results depend on the processing

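No reversal touched a called value. Library size alone gave 0 members higher and 10 lower in the WT response, and filterByExpr, which tested 28 members, 7 lower. For the difference of responses DESeq2 called 0 (no adjusted p for 30 of 34) and a false discovery rate of 0.05 called 1. DESeq2 called 17 higher without stimulation and 4 after R848. Leaving out 1 library at a time gave 0 to 2 higher and 1 to 5 lower in WT, 17 to 23 lower in Padi4 KO, 1 to 4 in the difference, 20 to 31 higher without stimulation, and 5 to 9 higher and 0 to 1 lower after R848; a lone library was assumed to vary like the other groups. Values that changed sign were Myc, genotype after R848, library size alone (0.0197); Polr1b in the WT response, counts thinned to the smallest library (0.0184). With libraries left out the ranges were -0.0539 to 1.56 for Dkc1, -0.68 to 0.68 for Polr1b and -0.31 to 1.37 for Gnl3 in the WT response, -0.89 to 0.34 for Ddx21, -0.30 to 0.54 for Nop16 and -0.37 to 1.28 for Gnl3 in the genotype difference after R848, and -0.87 to 3.13 for Srm in the difference of responses. Of 1052 values of single members under the alternatives, 973 kept direction and call, 59 lost a call, 7 gained one and 13 changed sign. Scaling by library size moved the median of all genes by -0.30 and -0.38 in the R848 responses and by 0.29 and 0.21 in the genotype contrasts, and relative log expression factors by -0.16 in the difference. All genes split 1170 higher and 1763 lower without stimulation (1901 and 561 with library size alone), 1159 and 957 after R848 (1870 and 417; 990 and 1359 with relative log expression factors), 879 and 1328 in the WT response (630 and 2106) and 989 and 1083 in that of Padi4 KO (624 and 2072), and the cause was not tested. With the replicate block the difference of responses had 2 members and unstimulated cells 29; the numbers share no stated mouse or day, and replicate differences correlated by -0.02 to 0.02 between groups over 6912 genes. Depth limits the list: 13 members had a mean under 10 counts, and the WT libraries were the shallower.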

Other observations

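Other genes linked to Myc in metabolism and growth, a list that holds none of the 34 members, were higher in unstimulated Padi4 KO in 25 of 32 tested and lower in 0, and after R848 in 19 and 2, which were Nampt and Ldha (over all genes 9.55% were higher without stimulation and 9.46% after R848). DESeq2 called 22 and 12 higher. Nampt, the rate-limiting enzyme of NAD salvage, went from 91 and 89 to 411 and 409 counts in WT (log2 2.41, SE 0.12, adjusted p = 6.7e-86) and from 103 and 162 to 561 and 547 in Padi4 KO (log2 2.09, SE 0.11, adjusted p = 1.49e-80). Between the genotypes it did not pass without stimulation (log2 -0.33, SE 0.15) and was lower in Padi4 KO after R848 (log2 -0.64, SE 0.09, adjusted p = 1.55e-10). Tfrc, the transferrin receptor, had 24 and 10 counts in unstimulated WT, 192 and 271 in Padi4 KO, 22 and 8 in WT after R848 and 288 and 273 in Padi4 KO after R848 (log2 2.88, SE 0.20, adjusted p = 7.42e-42, and 3.15, SE 0.21, adjusted p = 7.77e-50). In the same comparisons 12 and 13 of 13 erythroid markers were higher, and their part in the value of Tfrc was not tested. Ldha, lactate dehydrogenase A, did not pass between the genotypes without stimulation (log2 0.01, SE 0.09) and fell after R848 in Padi4 KO (log2 -1.33, SE 0.10, adjusted p = 6.05e-42). In WT its value was -0.96 (SE 0.11, adjusted p = 2.52e-16), short of 2-fold. After R848 it was lower in Padi4 KO (log2 -0.35, SE 0.12, adjusted p = 0.0308), a call lost with library size alone.

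Of 9 other genes of polyamine metabolism, 3 rose and 0 fell after R848 in WT, and 2 rose and 1 fell in Padi4 KO, against 7.17% of all genes higher and 10.8% lower in WT and 8.07% and 8.84% in Padi4 KO. DESeq2 called 2 higher in each genotype and 0 lower. Smox, spermine oxidase, rose in both genotypes, from 43 and 37 counts to 408 and 479 in WT (log2 3.68, SE 0.14, adjusted p = 1.68e-149) and from 85 and 120 to 664 and 659 in Padi4 KO (log2 2.72, SE 0.11, adjusted p = 3.96e-128), with a smaller rise in Padi4 KO (difference -0.97, SE 0.21, adjusted p = 0.000425). Sat1, the spermidine and spermine acetyltransferase, had log2 fold changes of 0.62 (SE 0.10) and 0.74 (SE 0.09), under 2-fold.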
